A study of Mus musculus with 6 samples.

Results

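Rab GTPases and the proteins that tether, prime and fuse vesicles were followed across ciliated, club and basal cells of the mouse airway surface. The genes were chosen by the spelling of their symbol alone, which gave 121 of the 20315 named genes in the authors' per-gene table. They are 60 symbols that begin with Rab and a number, 11 syntaxins (Stx), 7 vesicle-associated membrane proteins (Vamp), 3 genes of the SNAP25 family, 6 Stxbp genes, 17 synaptotagmins (Syt), 5 synaptotagmin-like genes (Sytl), 4 Unc13 genes and 8 exocyst subunits (Exoc). Rab3ip, which encodes an exchange factor for Rab8, and Rab10os, a transcript annotated opposite Rab10, match the spelling without encoding a Rab GTPase and were kept.

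A Rab GTPase marks a membrane compartment and, when bound to GTP, recruits effectors that move, tether or dock a vesicle. SNARE proteins then carry out the fusion: a Vamp on the vesicle pairs with a syntaxin and a SNAP25-family protein on the target membrane, Munc18-type Stxbp proteins clasp the syntaxin, Unc13 proteins prime the complex and synaptotagmins trigger it on calcium. Club cells use this machinery to secrete mucins and defence proteins, and ciliated cells use Rab8, Rab11 and their partners to deliver membrane to the cilium.

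The 6 arrays carry total RNA of flow-sorted epithelial cells of C57BL/6 mice, with 2 arrays for each cell type. The gate was EpCAM+, GSIβ4- and CD24+ for ciliated cells, EpCAM+ and SSEA1+ for club cells (called secretory in the protocol) and EpCAM+ and GSIβ4+ for basal cells. No treatment or genetic change is named for any group, and the labels give neither the age of the mice nor whether animals were pooled. They call the 2 arrays of a type biological replicates without tying them to animals, so every p-value measures the spread between these arrays, which may be technical in part.

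All levels are RMA log2 values, on which 1 unit is a 2-fold difference. Each gene was compared with itself between cell types, because different probe sets share no scale. In 3 of the 121 genes, not identified here, the values came from different probe sets. Differences between arrays and between probe sets cannot be told apart in those genes. The replicate arrays differed over the 121 genes by a median of 0.175 log2 units in ciliated cells, 0.214 in club cells and 0.26 in basal cells. Defining markers fitted the labels of ciliated and basal cells, and those of club cells fitted in part. The mean log2 level of 7 ciliated markers was 11.57 and 11.46 in the ciliated arrays, against 6.89 and 6.69 in the club and 6.08 and 6.39 in the basal arrays. The 7 basal markers averaged 7.82 and 8.16 in the ciliated, 8.44 and 8.48 in the club and 11.05 and 11.10 in the basal arrays. The 7 club markers averaged 11.96 and 11.80 in the ciliated, 13.13 and 13.20 in the club and 10.58 and 10.72 in the basal arrays. Among them Scgb1a1 read 14.20 and 13.87 in the ciliated, 14.31 and 13.98 in the club and 13.05 and 13.02 in the basal arrays. Lcn2 read 8.46 and 9.51 in the ciliated, 11.02 and 11.83 in the club and 7.19 and 6.72 in the basal arrays. At a limma adjusted p under 0.05, 4 of the 7 club markers were lower in ciliated than in club cells. The other 3, Scgb1a1, Cyp2f2 and Bpifa1, did not separate these 2 types, and Cyp2f2 and Bpifa1 did not separate club from basal cells either. In sorted bulk RNA, fewer cells of a type and less RNA per cell cannot be told apart.

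A minority of these genes differed between the cell types. In ciliated minus basal, 27 of 121 passed the test (limma over all genes, with a Benjamini-Hochberg adjusted p under 0.05), which is 22.3 percent, against 17.6 percent of all genes tested. Of these, 15 were higher in ciliated cells (12.4 percent, against 9.29 percent of all genes) and 12 lower (9.92 percent, against 8.28). In ciliated minus club 28 passed (23.1 percent, against 15.4 percent of all genes), 13 of them higher in ciliated cells (10.7 percent, against 7.93) and 15 lower (12.4 percent, against 7.46). In club minus basal 11 passed (9.09 percent, against 8.02 percent of all genes), 6 higher in club cells (4.96 percent, against 4.35) and 5 lower (4.13 percent, against 3.67). The median difference of the 121 genes was -0.07 in ciliated minus basal, -0.06 in ciliated minus club and 0.05 in club minus basal, and that of all genes was -0.02, 0.04 and -0.06. In at least 1 comparison 41 of the 121 passed (33.9 percent, against 24.0 percent of all genes), and 80 passed in none.

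These counts rest on few arrays. Over all genes, too, fewer passed in each comparison when any 1 ciliated or club array was left out, and more passed without basal replicate 1. The 15 higher genes in ciliated minus basal became 8 without ciliated replicate 1 and 7 without ciliated replicate 2. In ciliated minus club, the 13 higher genes became 8 without ciliated replicate 1, 7 without ciliated replicate 2 and 8 without club replicate 1. The 15 lower genes there became 7 and 5 without ciliated replicates 1 and 2, and 5 and 6 without club replicates 1 and 2. In club minus basal, the 6 higher genes became 3 without basal replicate 2 or either ciliated array, 1 without club replicate 1 and 2 without club replicate 2. The 5 lower genes there became 8 without basal replicate 1, 3 without either ciliated array, 2 without club replicate 1 and 1 without club replicate 2. Of the calls in ciliated minus club 46.4 percent were higher in ciliated cells, and with cyclic loess normalization 56.5 percent. Over all genes this share was 51.5 percent, and 55.7 percent with cyclic loess.

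**Figure D1:**
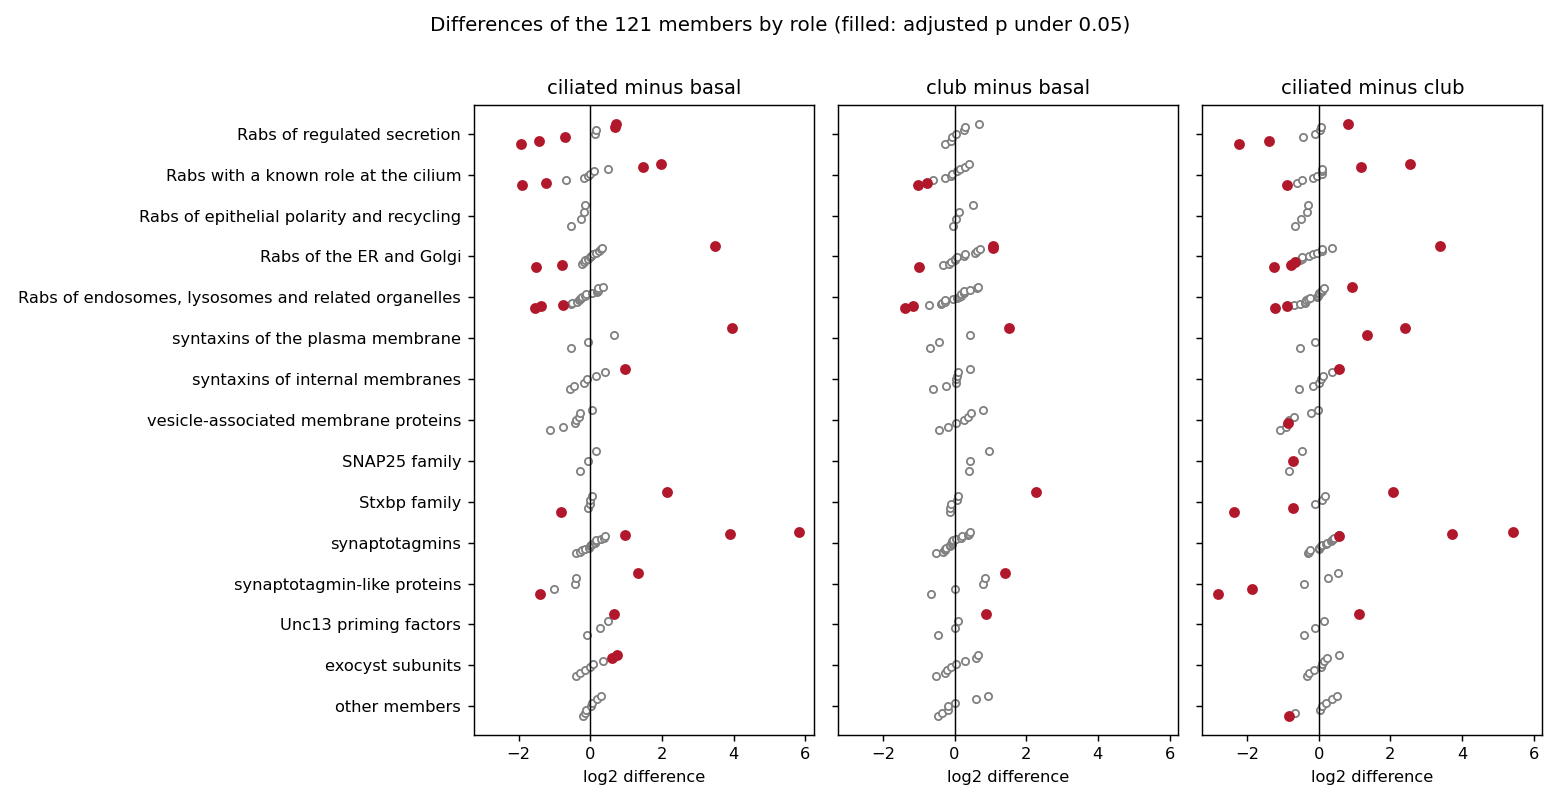
Log2 differences of the 121 genes (x axis) by role (y axis), in 1 panel per comparison of cell types. Each circle is 1 gene, and filled circles passed limma at an adjusted p under 0.05 over all genes; the synaptotagmins reach 5.81 in ciliated minus basal, while the vesicle-associated membrane proteins and the SNAP25 family hold 1 call each, both in ciliated minus club.

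Some synaptotagmins, SNARE genes and Rabs were highest in ciliated cells, in a share close to that of all genes. By the rule that both comparisons pass and the smaller difference is at least 1 log2 unit, 7 genes were higher in ciliated cells than in both other types: Syt5, Syt10, Stx19, Stxbp4, Rab36, Rab23 and Rab28. That is 5.79 percent of the 121, against 4.76 percent of all genes. Club cells had 3 such genes (2.48 percent, against 1.47 percent of all genes) and basal cells 3 (2.48 percent, against 1.81 percent). The 3 became 1 in club cells without club replicate 1, and 1 in basal cells without club replicate 2.

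Among the 121 genes the widest difference was that of Syt5, which encodes a synaptotagmin known from dense-core vesicles. Syt5 read 12.80 and 12.50 in the ciliated arrays, 7.0 and 7.46 in the club arrays and 6.42 and 7.27 in the basal arrays. Both ciliated arrays lay far above the others, while club and basal arrays overlapped. Ciliated cells were higher by 5.81 ± 0.30 log2 units (SE) than basal cells, or 56.1-fold, and by 5.43 ± 0.30 than club cells, or 43.0-fold (limma adjusted p = 1.6e-05 and 2.8e-05).

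Syt10, a calcium sensor for the release of insulin-like growth factor from mouse olfactory bulb neurons, read 9.38 and 9.75 in the ciliated arrays, 5.82 and 5.89 in the club arrays and 5.50 and 5.84 in the basal arrays. Here too the ciliated arrays stood alone and the others overlapped. Ciliated cells exceeded basal cells by 3.89 ± 0.20 and club cells by 3.71 ± 0.20 (limma adjusted p = 1.4e-05 and 2.3e-05). Syt9, another calcium-binding synaptotagmin, read 8.16 and 8.05 in the ciliated arrays, against 6.92 and 7.37 in the basal arrays, higher by 0.96 ± 0.19 (limma adjusted p = 0.012), a call that ended without either ciliated array (0.093 and 0.074). Syt14, a synaptotagmin that does not bind calcium, read 5.61 and 5.65 in the ciliated arrays, against 5.08 and 5.04 in the club arrays, low levels. It was higher in ciliated than in club cells by 0.57 ± 0.15 (limma adjusted p = 0.039). That call ended under cyclic loess (0.073), repeated quantile normalization (0.079) or without any 1 ciliated or club array. Leaving out dim genes removed Syt14 from the test. The other 13 synaptotagmins, among them the neuronal sensors Syt1 and Syt2, passed in no comparison (limma). At an unadjusted p under 0.05, 0 of them did in ciliated minus basal, 2 in ciliated minus club and 1 in club minus basal. These 13 are what remains once the called synaptotagmins are set aside. Of all genes, 24.0 percent passed in at least 1 comparison and the rest in none. The 7 neuroendocrine markers passed in no comparison either (1 had an unadjusted p under 0.05, in ciliated minus basal), and averaged 6.29 and 6.16 in the ciliated, 6.42 and 6.17 in the club and 6.48 and 6.29 in the basal arrays.

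Stx19, a syntaxin without a transmembrane domain, was graded over the 3 cell types. It read 9.20 and 10.08 in the ciliated arrays, 7.39 and 7.05 in the club arrays and 5.71 and 5.66 in the basal arrays, with no overlap between types. Ciliated cells exceeded basal cells by 3.96 ± 0.29 and club cells by 2.42 ± 0.29, and club cells exceeded basal cells by 1.53 ± 0.29 (limma adjusted p = 7.8e-05, 0.0012 and 0.019). The club minus basal call ended without basal replicate 2 (adjusted p = 0.0505), club replicate 1 (0.11) or club replicate 2 (0.0547). Of the 7 ciliated markers 1, Rsph4a, was higher in club than in basal cells as well, and its part in that difference was not tested. In the RefSeq gene table Stx19 lies within Arl13b, the gene of a small GTPase of the ciliary membrane. Arl13b averaged 9.05 ± 0.02 in ciliated cells, 8.52 ± 0.03 in club cells and 8.0 ± 0.78 in basal cells (SD, n = 2 arrays) and passed in no comparison (limma adjusted p = 0.07 for ciliated minus basal).

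Other syntaxin-side genes were higher in ciliated cells by less. Stxbp4, whose product binds syntaxin 4 in adipocytes, read 9.44 and 9.78 in the ciliated arrays, 7.59 and 7.51 in the club arrays and 8.18 and 6.77 in the basal arrays, where the replicates lay more than 1 unit apart. It was higher in ciliated cells by 2.14 ± 0.41 than in basal cells and by 2.06 ± 0.41 than in club cells (limma adjusted p = 0.0099 and 0.013). The first call ended without ciliated replicate 1 (0.056) or 2 (0.098), and the second without any 1 ciliated or club array (up to 0.12).

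Stx18, a syntaxin of the endoplasmic reticulum, read 8.47 and 8.49 in the ciliated arrays, 7.88 and 7.97 in the club arrays and 7.44 and 7.58 in the basal arrays. Ciliated cells exceeded basal cells by 0.97 ± 0.15 and club cells by 0.56 ± 0.15 (limma adjusted p = 0.0038 and 0.0481), and the second call ended without dim genes, with trended robust moderation or without any 1 ciliated or club array (up to 0.24). Stx2, a syntaxin of the plasma membrane, read 7.83 and 7.34 in the ciliated arrays, against 6.30 and 6.19 in the club arrays, higher by 1.35 ± 0.20 (limma adjusted p = 0.0039). Its basal arrays, at 6.82 and 7.02, lay between them, and neither comparison with basal cells passed.

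Rab36, Rab23 and Rab28 were the Rabs higher in ciliated cells than in both other types by at least 1 log2 unit. Rab36, a Golgi Rab closely related to Rab34, read 10.22 and 10.47 in the ciliated arrays, 6.82 and 7.08 in the club arrays and 6.56 and 7.20 in the basal arrays. It was 11.1-fold above basal and 10.5-fold above club cells (3.47 ± 0.24 and 3.39 ± 0.24 log2 units; limma adjusted p = 6.4e-05 and 9.2e-05), and club and basal arrays overlapped. Rab23, a negative regulator of Sonic hedgehog signalling in the mouse, read 9.47 and 9.16 in the ciliated arrays, 6.78 and 6.71 in the club arrays and 7.19 and 7.51 in the basal arrays. Here the club arrays were the lowest, and ciliated cells exceeded basal cells by 1.97 ± 0.19 and club cells by 2.56 ± 0.19 (limma adjusted p = 0.00031 and 0.00011).

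Rab28, which moves along cilia with intraflagellar transport in the worm Caenorhabditis elegans, read 8.62 and 8.91 in the ciliated arrays, 7.32 and 7.83 in the club arrays and 7.17 and 7.42 in the basal arrays. It was higher in ciliated cells by 1.47 ± 0.22 than in basal cells and by 1.19 ± 0.22 than in club cells (limma adjusted p = 0.0033 and 0.01). The second call ended without ciliated replicate 2 (0.098) or club replicate 1 (0.065). The ciliated calls of Syt5, Syt10, Stx19, Rab36 and Rab23 against both other types passed under each of the 11 alternatives tried.

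**Figure D2:**
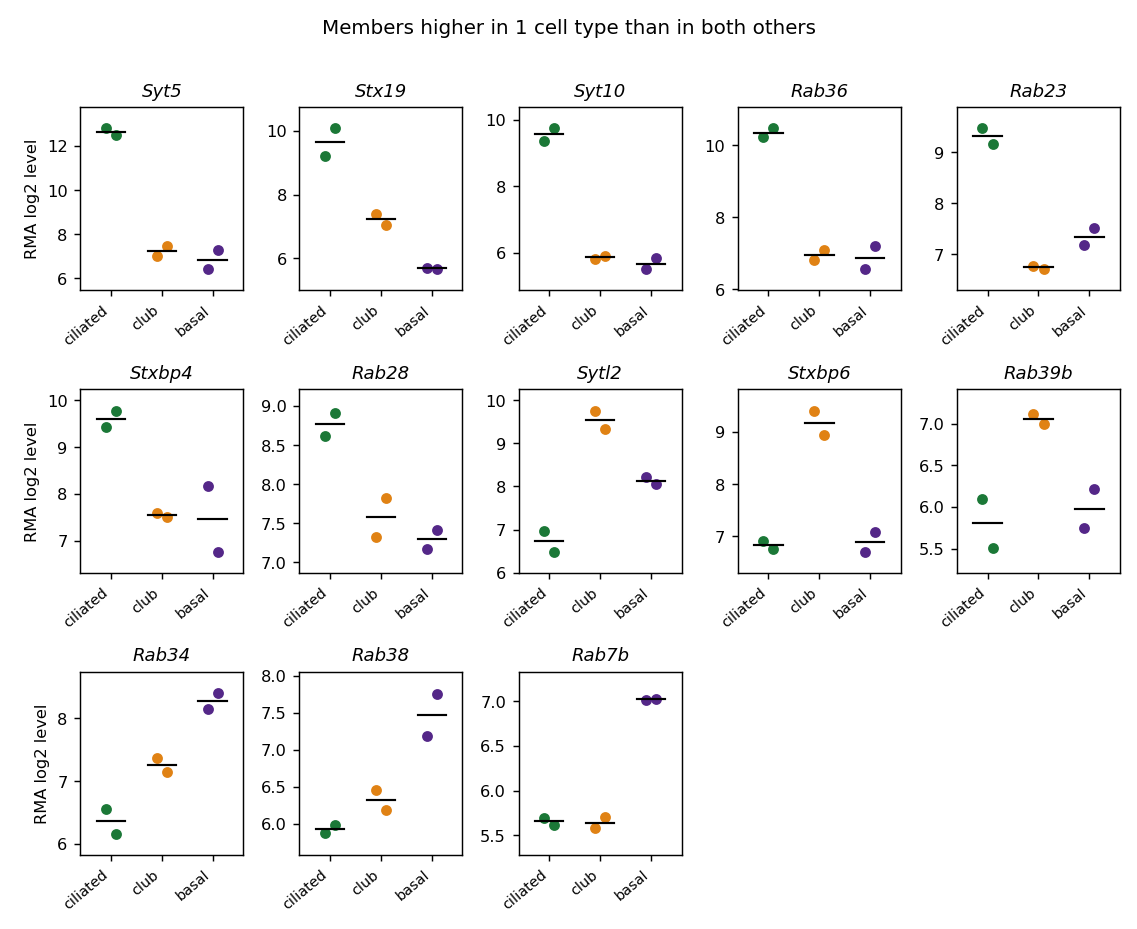
RMA log2 level (y axis, scaled for each gene) of the 13 genes higher in 1 cell type than in both others by at least 1 log2 unit, in ciliated, club and basal arrays (x axis). Points are single arrays and bars are means of 2 arrays; Syt5, Syt10, Stx19, Stxbp4, Rab36, Rab23 and Rab28 are highest in ciliated arrays, Sytl2, Stxbp6 and Rab39b in club arrays, and Rab34, Rab38 and Rab7b in basal arrays.

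Promoter sequence was read for the genes highest in ciliated cells, since RFX and forkhead (FOXJ1) factors are known to act on genes of motile cilia. RefSeq start sites (GRCm38.p6) gave windows of 300 bases, 250 before and 50 after the start, for 98 of the 121 genes and for 5 of the 7: Rab23, Rab28, Stx19, Stxbp4 and Syt10. A relaxed 14-base core of the X-box, which RFX factors bind, and the forkhead core GTAAACA were searched on both strands, and the 2 could overlap. Of all 32851 windows, 4.62 percent held the X-box letters and 3.65 percent the forkhead letters. Of the 124 windows of these genes 2.42 percent and 3.23 percent did. Windows existed for 2 of the 3 genes highest in club cells, of which 1 held the forkhead letters and 0 the X-box letters. The 1 window-bearing gene highest in basal cells held neither. Among the 5 highest in ciliated cells, the X-box letters were in Rab23 and the forkhead letters in Stx19. The windows of these genes and, as a contrast, of Syt10, which held neither, are printed 5′ to 3′ on the gene's strand with matched letters in capitals. They lie at chr1:33719646-33719945 (Rab23, plus strand, match from position -112 relative to the start), chr16:62814426-62814725 (Stx19, plus strand, from -224) and chr15:89841811-89842110 (Syt10, minus strand).
Rab23: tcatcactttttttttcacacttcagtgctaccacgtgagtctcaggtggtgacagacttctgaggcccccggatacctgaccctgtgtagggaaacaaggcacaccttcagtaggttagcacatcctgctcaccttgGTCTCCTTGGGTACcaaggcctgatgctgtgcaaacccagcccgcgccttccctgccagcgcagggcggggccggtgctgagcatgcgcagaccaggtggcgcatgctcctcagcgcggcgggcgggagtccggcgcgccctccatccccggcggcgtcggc
Stx19: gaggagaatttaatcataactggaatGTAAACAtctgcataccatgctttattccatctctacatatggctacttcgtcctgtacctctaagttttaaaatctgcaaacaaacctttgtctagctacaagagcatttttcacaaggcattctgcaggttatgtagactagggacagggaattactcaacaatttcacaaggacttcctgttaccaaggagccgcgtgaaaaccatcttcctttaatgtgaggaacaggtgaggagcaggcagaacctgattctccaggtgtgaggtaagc
Syt10: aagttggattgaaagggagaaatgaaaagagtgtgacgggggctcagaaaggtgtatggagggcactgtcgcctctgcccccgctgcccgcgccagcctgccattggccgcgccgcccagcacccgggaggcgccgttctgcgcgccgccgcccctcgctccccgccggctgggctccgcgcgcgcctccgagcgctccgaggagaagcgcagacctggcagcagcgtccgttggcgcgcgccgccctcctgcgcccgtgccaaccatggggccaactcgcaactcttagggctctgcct
A match describes letters in the window and is no evidence of binding.

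The Rab27 GTPases separated ciliated cells from the other types in the opposite direction. Rab27a, which docks secretory granules and lysosome-related organelles, read 6.81 and 7.26 in the ciliated arrays, 8.27 and 8.56 in the club arrays and 8.41 and 8.55 in the basal arrays. Its paralog Rab27b read 6.43 and 6.45 in the ciliated arrays, 8.97 and 8.37 in the club arrays and 8.39 and 8.35 in the basal arrays. For both genes the ciliated arrays lay below all others, and club and basal arrays overlapped. For Rab27a the difference was -1.44 ± 0.20 in ciliated minus basal and -1.38 ± 0.20 in ciliated minus club (limma adjusted p = 0.0024 and 0.0036), and for Rab27b -1.93 ± 0.21 and -2.23 ± 0.21 (adjusted p = 0.0007 and 0.00043). All 4 calls passed under each of the 11 alternatives. Club minus basal was -0.06 ± 0.20 for Rab27a, with a 95 percent interval from -0.54 to 0.41, and 0.30 ± 0.21 for Rab27b, from -0.20 to 0.80.

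Sytl2 encodes Slp2-a, a Rab27 effector that docks mucus granules of the mouse stomach at the plasma membrane. It read 6.96 and 6.49 in the ciliated arrays, 9.76 and 9.33 in the club arrays and 8.21 and 8.06 in the basal arrays, with no overlap between types. It was the 1 gene of the 121 that was higher in club than in basal cells (1.41 ± 0.22, limma adjusted p = 0.0098) and lower in ciliated than in basal cells (-1.41 ± 0.22, adjusted p = 0.0042). Ciliated cells were lower than club cells 7.06-fold (-2.82 ± 0.22, adjusted p = 0.00017). The club minus basal call ended without club replicate 1 (0.063).

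The other synaptotagmin-like genes did not share 1 pattern. Sytl5, also a Rab27 effector, read 5.98 and 6.32 in the ciliated arrays, 8.34 and 7.70 in the club arrays and 7.57 and 6.77 in the basal arrays. It passed in ciliated minus club (-1.87 ± 0.32, limma adjusted p = 0.0068), a call that ended without ciliated replicate 1 (0.073), and in no other comparison. Sytl3 read 7.21 and 8.07 in the ciliated arrays, against 6.16 and 6.47 in the basal arrays, higher by 1.33 ± 0.30 (limma adjusted p = 0.021), and that call ended without basal replicate 1 (0.064) or ciliated replicate 2 (0.12). Sytl1 and Sytl4 passed in no comparison.

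**Figure D3:**
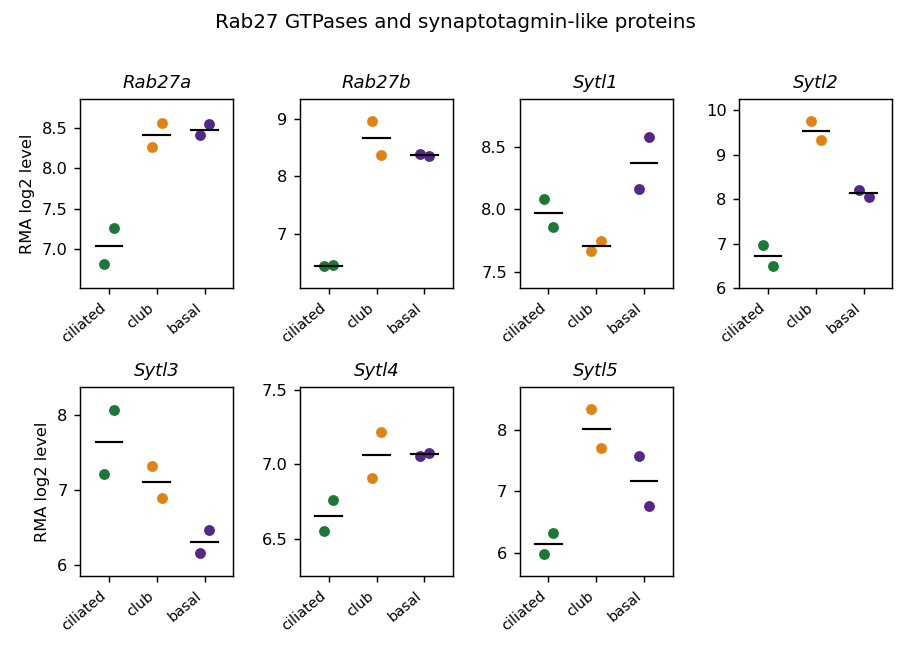
RMA log2 level (y axis, scaled for each gene) of Rab27a, Rab27b and the 5 synaptotagmin-like genes in ciliated, club and basal arrays (x axis). Points are single arrays and bars are means of 2 arrays; Rab27a and Rab27b are at 7.26 or below in the ciliated arrays and at 8.27 or above in the others, and Sytl2 is highest in the club arrays.

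The Rab3 genes, which mark regulated secretory vesicles, differed by less and in both directions. Rab3d, found on the granules of exocrine glands, read 9.28 and 9.04 in the ciliated arrays, 9.60 and 9.59 in the club arrays and 9.75 and 9.96 in the basal arrays, a difference of -0.70 ± 0.17 in ciliated minus basal (limma adjusted p = 0.027). Rab3b read 6.78 and 6.89 in the ciliated arrays, 5.91 and 6.14 in the club arrays and 6.08 and 6.17 in the basal arrays, higher in ciliated cells by 0.71 ± 0.16 than in basal and by 0.81 ± 0.16 than in club cells (limma adjusted p = 0.021 and 0.014). Rab3a, the Rab of synaptic vesicles, passed narrowly in ciliated minus basal (0.69 ± 0.20, limma adjusted p = 0.0497). Each of these 4 calls ended when 1 array was left out, at up to 0.18 for Rab3d, 0.14 and 0.11 for Rab3b and 0.29 for Rab3a, and the Rab3d call also under trended robust moderation (0.065). Of the 7 measured Rabs of regulated secretion, 2 were higher and 3 lower in ciliated than in basal cells, 1 was higher and 2 lower in ciliated than in club cells, and 0 passed in club minus basal (limma), where 1 was higher at an unadjusted p under 0.05. Of all genes, 9.29 percent were higher and 8.28 percent lower in ciliated minus basal, and 7.93 percent higher and 7.46 percent lower in ciliated minus club.

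Besides Sytl2, the genes highest in club cells were Stxbp6 and Rab39b. Stxbp6 encodes amisyn, a SNARE-binding protein that can hold back fusion, and read 6.91 and 6.75 in the ciliated arrays, 9.41 and 8.95 in the club arrays and 6.71 and 7.09 in the basal arrays. Its club arrays lay above all others, with -2.36 ± 0.22 in ciliated minus club and 2.28 ± 0.22 in club minus basal (limma adjusted p = 0.00036 and 0.0011), and both calls passed under each of the 11 alternatives. Rab39b, a Rab whose loss causes intellectual disability in humans, read 6.10 and 5.51 in the ciliated arrays, 7.11 and 6.99 in the club arrays and 5.75 and 6.21 in the basal arrays. It was called in club minus basal (1.07 ± 0.24, limma adjusted p = 0.041) and also in ciliated minus club (-1.25 ± 0.24, adjusted p = 0.013). The first call ended without any 1 array except basal replicate 2 (up to 0.19), and the second without ciliated replicate 2, club replicate 1 or club replicate 2 (up to 0.098). Goblet cell markers moved with these genes: 6 of 7 were higher in club than in basal cells and 6 of 7 lower in ciliated than in club cells, and the list averaged 8.38 and 7.79 in the ciliated, 9.50 and 9.79 in the club and 7.24 and 7.31 in the basal arrays. Of 7 tuft cell markers 2, Dclk1 and Trpm5, were lower in ciliated than in club cells, and that list averaged 6.80 and 6.69, 7.69 and 7.20 and 7.05 and 7.10 in the same order. The part of such cells in the club levels was not tested.

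Of the priming factors, Unc13b passed in club minus basal and Unc13d in both comparisons of ciliated cells. Both encode Munc13 proteins that take part in airway mucin secretion in the mouse. Unc13b read 8.90 and 9.05 in the ciliated arrays, 9.24 and 9.51 in the club arrays and 8.58 and 8.41 in the basal arrays, higher in club than in basal cells by 0.88 ± 0.17 (limma adjusted p = 0.022). Unc13d read 8.22 and 8.22 in the ciliated arrays, 7.10 and 7.09 in the club arrays and 7.39 and 7.73 in the basal arrays. It was higher in ciliated cells by 1.12 ± 0.17 than in club and by 0.66 ± 0.17 than in basal cells (limma adjusted p = 0.004 and 0.035). The Unc13d call against club cells passed under each of the 11 alternatives. The call against basal cells ended without any 1 array except basal replicate 2 (up to 0.17), and the Unc13b call without any 1 except basal replicate 1 (up to 0.14). Unc13a and Unc13c, known from neurons, passed in no comparison.

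Several core fusion genes of epithelial secretion passed in no comparison. Stxbp2, the Munc18 protein of airway mucin secretion, read 9.75 and 9.91 in the ciliated arrays, 9.78 and 10.07 in the club arrays and 9.69 and 9.98 in the basal arrays, which all overlapped. Its 95 percent interval ran from -0.43 to 0.43 in ciliated minus basal and from -0.34 to 0.52 in club minus basal, so a difference of 1 log2 unit lies outside both. Snap23, the widespread partner of plasma membrane syntaxins, read 10.70 and 10.29 in the ciliated arrays, 11.52 and 11.11 in the club arrays and 10.69 and 10 in the basal arrays. Its club arrays lay above the others, but 0.97 ± 0.28 in club minus basal missed the threshold (limma adjusted p = 0.086).

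Vamp8, a vesicle SNARE of mucin granules, read 10.04 and 9.34 in the ciliated arrays, 10.54 and 10.69 in the club arrays and 10.35 and 11.27 in the basal arrays. The ciliated arrays were the lowest, with -1.12 ± 0.34 in ciliated minus basal (limma adjusted p = 0.064). Vamp2, a vesicle SNARE best known from synapses, read 9.21 and 9.78 in the ciliated arrays, 10.23 and 10.39 in the club arrays and 10.09 and 10.45 in the basal arrays, again lowest in the ciliated arrays and not past the threshold (limma adjusted p = 0.062 in ciliated minus basal and 0.056 in ciliated minus club). The apical syntaxin Stx3 read 7.56 and 8.04 in the ciliated arrays, 8.09 and 8.53 in the club arrays and 8.04 and 7.72 in the basal arrays. Its club arrays lay above the rest, and its interval ran from -1.07 to 0.05 in ciliated minus club.

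**Figure D4:**
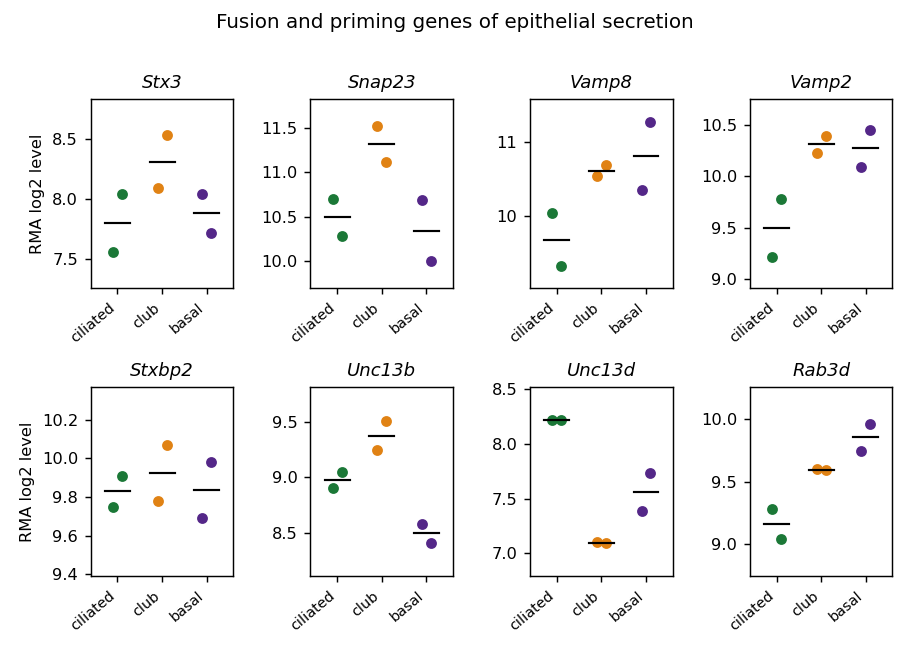
RMA log2 level (y axis, scaled for each gene) of 8 genes of fusion, priming and granule docking in ciliated, club and basal arrays (x axis). Points are single arrays and bars are means of 2 arrays; Stxbp2 stays within 9.69 to 10.07 in all arrays, and Unc13d is at 8.22 in both ciliated arrays.

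Basal cells had the highest level of Rab34, Rab38 and Rab7b. Rab34, which acts in the assembly of primary cilia in the mouse, read 6.56 and 6.16 in the ciliated arrays, 7.36 and 7.14 in the club arrays and 8.14 and 8.40 in the basal arrays, so the ciliated arrays were the lowest. Its differences were -1.91 ± 0.20 in ciliated minus basal, -0.89 ± 0.20 in ciliated minus club and -1.02 ± 0.20 in club minus basal (limma adjusted p = 0.00055, 0.023 and 0.024). The ciliated minus club call ended without ciliated replicate 2 or either club array (up to 0.16), and the club minus basal call without basal replicate 2 or either club array (up to 0.14). Rab7b, which takes part in traffic from late endosomes to the Golgi, read 5.69 and 5.62 in the ciliated arrays, 5.58 and 5.70 in the club arrays and 7.02 and 7.03 in the basal arrays. The basal arrays stood above all others, with -1.37 ± 0.15 in ciliated minus basal and -1.39 ± 0.15 in club minus basal (limma adjusted p = 0.00064 and 0.0017), under each of the 11 alternatives too.

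Rab38, which serves melanosomes and the lamellar bodies of lung type 2 cells, read 5.88 and 5.98 in the ciliated arrays, 6.45 and 6.19 in the club arrays and 7.18 and 7.75 in the basal arrays. It differed by -1.54 ± 0.22 in ciliated minus basal and -1.15 ± 0.22 in club minus basal (limma adjusted p = 0.0027 and 0.022), and the second call ended without any 1 ciliated or club array (up to 0.13). The Golgi Rab30 read 5.48 and 5.56 in the ciliated arrays, 6.09 and 5.99 in the club arrays and 7.07 and 6.99 in the basal arrays, and Rab8b, a paralog of Rab8a, read 7.44 and 7.60, 7.90 and 8.08 and 8.83 and 8.69 in the same order. Both were highest in the basal arrays without reaching 1 log2 unit in club minus basal. Rab30 differed by -1.51 ± 0.15 in ciliated minus basal and -0.99 ± 0.15 in club minus basal (limma adjusted p = 0.00039 and 0.008), and Rab8b by -1.23 ± 0.16 and -0.77 ± 0.16 (adjusted p = 0.0017 and 0.03). In club minus basal the Rab30 call ended without club replicate 2 (0.064), and the Rab8b call with trended robust moderation or without any 1 array except basal replicate 2 (up to 0.19).

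Markers of other cells were also higher in the basal arrays. Of 7 leukocyte markers, Laptm5, Cd53 and Tyrobp were lower in ciliated and in club cells than in basal cells, and Lcp1 was higher in club than in basal cells. The list averaged 6.36 and 6.24 in the ciliated, 6.35 and 6.32 in the club and 6.98 and 6.82 in the basal arrays. Of 7 fibroblast markers, Dcn and Fbln1 were lower in ciliated and in club cells than in basal cells. Dcn read 6.64 and 8.03 in the ciliated arrays, 7.98 and 7.61 in the club arrays and 12.30 and 12.13 in the basal arrays, and the fibroblast list averaged 6.47 and 6.58, 6.48 and 6.44 and 7.56 and 7.62 in the same order. Of 7 mast cell markers, Kit was lower in ciliated and in club cells than in basal cells, and that list averaged 5.32 and 5.22 in the ciliated, 5.08 and 5.11 in the club and 5.46 and 5.40 in the basal arrays. The defining genes Ptprc (leukocytes) and Col1a1 (fibroblasts) passed in no comparison. The part of such cells in the basal Rab levels was not tested.

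Rabs with a known role at the cilium did not shift together. Of 10, Rab23 and Rab28 were higher and Rab34 and Rab8b lower in ciliated than in basal cells, and the median difference was -0.05. Over all genes, 9.29 percent were higher and 8.28 percent lower in that comparison. In ciliated minus club 2 of the 10 were higher and 1 lower, against 7.93 and 7.46 percent of all genes. Rab8a, which carries membrane to the cilium, read 10.20 and 10.93 in the ciliated arrays, 10.29 and 10.65 in the club arrays and 9.94 and 10.20 in the basal arrays, and passed in no comparison (0.49 ± 0.26 in ciliated minus basal, limma adjusted p = 0.29). Rab11a, of the recycling endosome, read 9.16 and 9.06 in the ciliated arrays, 9.24 and 9.10 in the club arrays and 8.94 and 9.10 in the basal arrays. Its ciliated minus basal interval ran from -0.27 to 0.46. Rab25, an epithelial recycling Rab, read 11 and 11.35 in the ciliated arrays, 11.44 and 11.54 in the club arrays and 11.26 and 11.62 in the basal arrays. Neither Rab25 nor the other 3 Rabs of epithelial polarity passed in any comparison (limma), and at an unadjusted p under 0.05 1 was lower in ciliated than in club cells.

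Of 14 Rabs of the endoplasmic reticulum and Golgi, 3 were lower and 1 higher in ciliated than in club cells, and of 18 Rabs of endosomes and lysosomes 2 were lower and 1 higher, against 7.46 percent of all genes lower and 7.93 percent higher. Rab1a, which serves transport from the endoplasmic reticulum to the Golgi, read 11.08 and 10.81 in the ciliated arrays, 11.78 and 11.64 in the club arrays and 10.90 and 10.35 in the basal arrays, higher in club than in basal cells by 1.08 ± 0.22 (limma adjusted p = 0.027). Rab2a, of the same route, differed by -0.67 ± 0.18 in ciliated minus club (limma adjusted p = 0.042). Rab43, a Golgi Rab, differed by -0.78 ± 0.21 in ciliated minus club and -0.78 ± 0.21 in ciliated minus basal (limma adjusted p = 0.043 and 0.038). Rab5a and Rab21, Rabs of early endosomes, were lower in ciliated than in club cells (-1.22 ± 0.29 and -0.88 ± 0.21; limma adjusted p = 0.031 and 0.028), and Rab31, of the trans-Golgi and endosomes, was higher by 0.92 ± 0.19 (adjusted p = 0.017). Rab12, of recycling endosomes, differed by -0.75 ± 0.16 in ciliated minus basal (limma adjusted p = 0.015). Each of these 8 calls ended when 1 array or another was left out, at up to 0.24. Cyclic loess ended those of Rab1a, Rab2a, Rab5a and Rab21 and both of Rab43, at an adjusted p between 0.0509 and 0.074. Repeated quantile normalization ended the Rab1a call (0.056), and trended robust moderation the Rab2a call (0.093).

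Among the remaining SNARE genes, 1 of 7 Vamp genes and 1 of 3 genes of the SNAP25 family passed, both in ciliated minus club. In that comparison 3 of 6 Stxbp genes passed too, against 15.4 percent of all genes. Snap29, a SNARE of internal membranes, read 8.39 and 8.26 in the ciliated arrays, against 9.16 and 8.95 in the club arrays (-0.73 ± 0.17, limma adjusted p = 0.027). In the RefSeq table it overlaps Pi4ka, a lipid kinase gene, which was lower in ciliated than in club cells too (-0.74 ± 0.16, adjusted p = 0.022). Vamp5, known from muscle, differed by -0.85 ± 0.19 in ciliated minus club (limma adjusted p = 0.024). Stxbp5, which encodes the fusion inhibitor tomosyn, read 7.27 and 7.18 in the ciliated arrays, 7.92 and 7.95 in the club arrays and 8.25 and 7.86 in the basal arrays, lowest in ciliated cells in both comparisons (-0.83 ± 0.18 from basal and -0.71 ± 0.18 from club cells; limma adjusted p = 0.017 and 0.036). The calls of Snap29 and Vamp5 and both calls of Stxbp5 ended without 1 or more of the arrays. With all arrays, the Snap29 call also ended under cyclic loess (0.0528) and trended robust moderation (0.0523), and the ciliated minus club call of Stxbp5 under cyclic loess (0.068). Rab10os, which overlaps Rab10 in the RefSeq table, was lower in ciliated than in club cells (-0.83 ± 0.19, limma adjusted p = 0.025), a call that ended without any 1 ciliated or club array (up to 0.17), and Rab10 itself passed in no comparison.

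The exocyst tethers vesicles to the plasma membrane ahead of fusion. Of its 8 subunits, Exoc6, a partner of Rab11, and Exoc2 exceeded the basal level in ciliated cells (0.75 ± 0.18 and 0.61 ± 0.17; limma adjusted p = 0.027 and 0.0494). Both calls ended without basal replicate 2 or either ciliated array, at up to 0.18 and 0.23, and the Exoc2 call also ended without either club array, with repeated quantile normalization and with trended robust moderation. In the other comparisons 0 passed (limma), and at an unadjusted p under 0.05 2 were higher in club than in basal cells and 1 in ciliated than in club cells. Over all genes, 9.29 percent were higher in ciliated minus basal. In ciliated minus club 15.4 percent of all genes passed in either direction, and in club minus basal 8.02 percent.

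Genes of the pathway that the spelling does not reach were taken from 2 lists. Whether their calls passed under the alternatives is not given here. Of 44 measured regulators and effectors of Rabs, 7 were higher and 3 lower in ciliated than in basal cells, 7 higher and 4 lower in ciliated than in club cells, and 4 higher and 2 lower in club than in basal cells. Of all genes, 17.6 percent were called in ciliated minus basal, 15.4 percent in ciliated minus club and 8.02 percent in club minus basal. Tbc1d30, a GTPase-activating protein that acts on Rab8 in human cells, read 8.71 and 8.90 in the ciliated arrays, 7.90 and 8.12 in the club arrays and 6.45 and 6.90 in the basal arrays (2.13 ± 0.20 in ciliated minus basal, limma adjusted p = 0.0003). Mlph, a Rab27a effector, read 9.01 and 8.91 in the ciliated arrays, 10.31 and 10.36 in the club arrays and 8.42 and 8.77 in the basal arrays, highest in club cells (-1.38 ± 0.17 in ciliated minus club and 1.74 ± 0.17 in club minus basal; limma adjusted p = 0.0017 and 0.0013). Rph3al, an effector of Rab3 and Rab27, read 9.52 and 10.28 in the ciliated arrays, 8.37 and 8.56 in the club arrays and 8.26 and 8.51 in the basal arrays, highest in ciliated cells (1.51 ± 0.26 from basal and 1.43 ± 0.26 from club cells; limma adjusted p = 0.0062 and 0.0093).

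Of 43 measured SNARE and priming genes outside the spelling, 4 were higher and 1 lower in ciliated than in basal cells, 3 higher and 8 lower in ciliated than in club cells, and 5 higher in club than in basal cells. That is 5 of 43 called in ciliated minus basal, 11 in ciliated minus club and 5 in club minus basal, against 17.6, 15.4 and 8.02 percent of all genes. Cadps2, a priming factor of dense-core vesicles, read 7.88 and 8.09 in the ciliated arrays, 8.89 and 8.78 in the club arrays and 7.17 and 6.95 in the basal arrays, and passed in all 3 comparisons (0.92 ± 0.17 in ciliated minus basal, -0.85 ± 0.17 in ciliated minus club and 1.78 ± 0.17 in club minus basal; limma adjusted p = 0.0078, 0.013 and 0.001). Stxbp5l, a tomosyn paralog, read 5.20 and 5.18 in the ciliated arrays, 6.96 and 6.46 in the club arrays and 5.46 and 5.41 in the basal arrays, highest in club cells (-1.52 ± 0.20 in ciliated minus club and 1.27 ± 0.20 in club minus basal; limma adjusted p = 0.0019 and 0.0086). Use1, a SNARE of traffic from the Golgi to the endoplasmic reticulum, read 10.65 and 10.34 in the ciliated arrays, against 11.63 and 12.06 in the basal arrays (-1.35 ± 0.20, limma adjusted p = 0.0031).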

How the data were processed

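RNA of sorted airway cells was measured on 6 arrays, 2 per cell type, grouped by their titles. Per the submitters' processing notes the values were made with RMA, which corrects background, normalizes the arrays by quantiles and summarises probes on a log2 scale. Neither the array platform nor the genome build is given in the sources used here. The authors deposited log2 values for 35556 probe sets and log2 values per gene. All 726 per-gene values of the 121 genes were found among the probe sets of their own array (tolerance 1e-06); in 118 genes 1 probe set supplied all 6. The authors also deposited a score of each gene's enrichment in a cell type, named a z-score in the file headers, which was not used. Of the deposited columns, 18 belong to another study and were not used.

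The per-gene values of 20315 genes were fitted without further normalization or filter, leaving out 1 line without a symbol. The fit has a mean per cell type over all 6 arrays (limma 3.58.1, R 4.3.3), empirical Bayes moderation (4.297 prior degrees of freedom) and Benjamini-Hochberg adjustment over all genes. The code was tested on simulated data. Errors are the SD over 2 arrays or the SE of the fit, and the number of arrays limits the precision. Without detection calls no gene was called absent. The alternatives were quantile normalization applied again, cyclic loess, leaving out genes with a mean level below 5.67 (the lower quartile), trended robust moderation, the replicate number as a block, and leaving out each array.

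Described in full are up to 15 genes past the threshold per comparison and direction, those higher in 1 type than in both others, 12 genes of secretion or ciliary delivery chosen by name, and from each list outside the spelling some of the up to 5 widest. The genes and lists were chosen with earlier results of these data known. Promoter windows and gene overlaps come from RefSeq tables (GRCm38.p6), in which all 121 genes were matched by symbol.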

Additional observations from a re-analysis of the deposited data

How the results depend on the processing

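No call of the 121 genes changed direction under any of the 11 alternatives. Under all of them, 15 of 27 calls in ciliated minus basal, 11 of 28 in ciliated minus club and 2 of 11 in club minus basal passed. When 1 array is left out, the lone array of that type is assumed to vary like the others. The higher genes in ciliated minus basal then numbered 7 to 13 (15 with all arrays) and the lower 8 to 13 (12). In ciliated minus club they numbered 7 to 15 higher (13) and 5 to 21 lower (15), and in club minus basal 1 to 8 higher (6) and 1 to 8 lower (5). Genes higher in 1 type than in both others numbered 5 to 7 for ciliated (7), 1 to 3 for club (3) and 1 to 3 for basal cells (3). Fewer arrays were fitted in each case, and no other cause was tested. With the replicate block, 11 genes in place of 6 were higher in club minus basal, the cause was not tested, and the other 8 counts stayed within 1.5 times. The arrays share only a number: across genes, the replicate 1 minus replicate 2 differences correlated at 0.052 between ciliated and basal, 0.265 between club and basal and 0.26 between ciliated and club arrays. Both normalizations, the filter on dim genes and trended robust moderation left all 9 counts within 1.5 times. Rab3c and Rab33a lay below the lower quartile of every array, and without detection calls such low values carry little information on a difference.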
